A study of Mus musculus with 6 samples.

Results

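The Bcl2 family controls the mitochondrial route of apoptosis, and 10 of its genes were compared between colonic tumor cells with and without an inhibitor of Group I Paks. The genes were taken from a given list of symbols, Bcl2, Bcl2l1, Mcl1, Bax, Bak1, Bcl2l11, Bbc3, Pmaip1, Bid and Bad, and all 10 were found among the 21966 genes measured. Pro-survival members (Bcl2, Bcl2l1 and Mcl1) hold back the effectors Bax and Bak1, which otherwise form pores in the outer mitochondrial membrane and release cytochrome c. BH3-only members (Bcl2l11, Bbc3, Pmaip1, Bid and Bad) relay stress signals by binding the pro-survival proteins or by activating the effectors. Pak1 can phosphorylate Bad, and phosphorylated Bad is held by 14-3-3 proteins away from the pro-survival proteins. Much of this control acts on proteins, which RNA levels do not show.

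RNA-seq was performed on primary cells grown from colonic adenomas of mice. PID+ cells carried the transgene CDX2P-NLS-Cre, the allele combination APC^Δ/+ and the allele ROSA26-PID, so that Cre, driven by the CDX2P promoter, switched on a GST-tagged Pak inhibitory domain (PID) with an eGFP reporter from the Rosa26 locus. PID- cells carried CDX2P-NLS-Cre and APC^Δ/+ alone, so that the Cre transgene and the Apc deletion were shared by both groups and the PID allele was the labelled difference. Each group had 3 samples, which the labels name by mouse, with numbers that match the paper's cell lines for PID+ but not for PID-. The methods call the 3 read sets of a group replicated sequencing runs, so whether they came from 3 mice is not settled. The GEO labels call the PID- samples normal although the methods describe tumor cells. The authors merged the reads of a group before quantification, so every gene has 1 pooled value per group, in FPKM, which counts fragments per length of transcript and per depth of sequencing, with the deposited bounds of a confidence interval. There is therefore no spread between mice, no test and no p-value for any value given here. The few cell lines of each genotype can also differ for reasons other than PID, and these cannot be told apart from it.

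In the pooled values, log2 changes of the 10 genes between PID+ and PID- cells ran from -0.54 to 0.53, and from -1.14 to -0.02 with equal Gapdh. Of the 10 members, 0 were changed at least 2-fold and 0 at least 3-fold in either direction, on the scale of log2(FPKM + 1) that is used for all changes here. With equal Gapdh, Bad passed 2-fold downwards, beside 11.7% of all genes. Over the 21959 genes with a usable status in both conditions, 3.31% passed 2-fold with the higher value in PID+ cells and 3.77% with the lower value, and at 3-fold the shares were 1.04% and 1.72%. Among the 9341 genes whose FPKM averaged 5 or more over the groups, which include all 10 members, the shares at 2-fold were 5.01% higher and 5.2% lower. With shares this low, a count of 0 among 10 genes is near the background and says nothing particular about the family. A lower threshold of 1.5-fold, chosen after the values were seen, was also passed by 0 members, beside 13% of these 9341 genes that were higher and 13.4% that were lower. Without the added 1, Bcl2l11 had a ratio of 1.51 in FPKM.

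The deposited intervals overlapped for all 10 members. Over all genes, intervals were apart with the higher value in PID+ cells in 0.187% and with the lower value in PID+ cells in 0.542%. The intervals are wide, with a median distance from the FPKM to the upper bound of 74.5% of the FPKM in PID+ and 73.5% in PID- cells for genes with an FPKM of at least 10. Overlap therefore does not show that a gene was equal in both groups. For the 5 members whose lower bounds were above 0 in both groups, the bounds leave a wide range of ratios of PID+ to PID-. It reached from 0.159 to 3.74 for Bcl2 and from 0.202 to 3.73 for Bcl2l1. It reached from 0.34 to 4.15 for Mcl1, from 0.315 to 5.75 for Bax and from 0.39 to 5.28 for Pmaip1. Changes well past 2-fold are thus within the bounds for each of these genes. The other 5 members had a lower bound of 0 in PID+ cells.

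**Figure D1:**
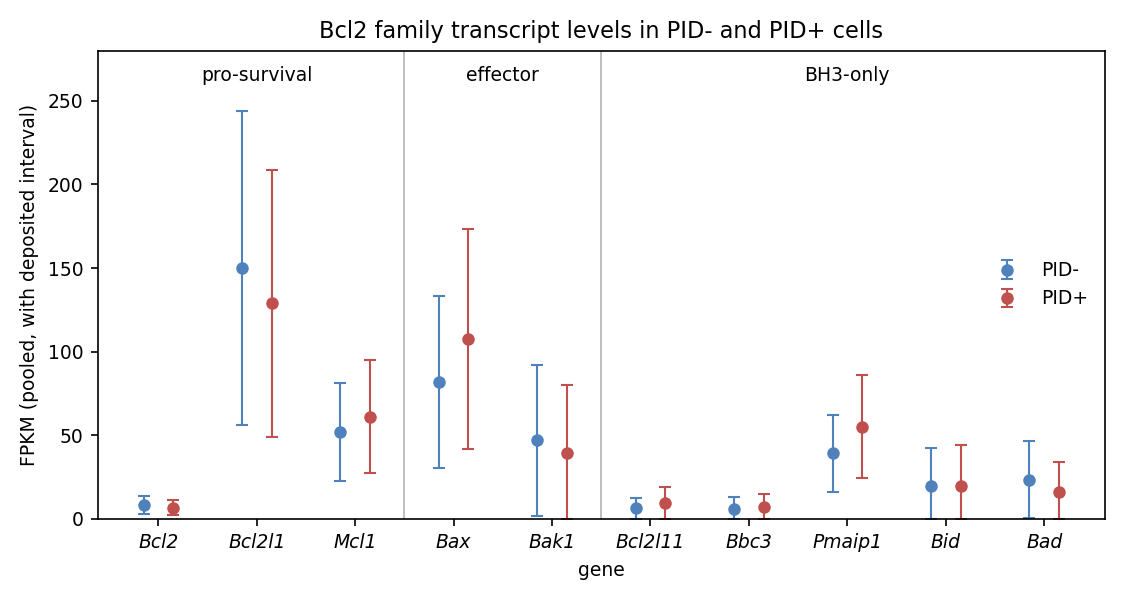
FPKM (y axis, linear) of the 10 Bcl2 family genes (x axis, grouped by role) in PID- (blue) and PID+ (red) cells, with points for the pooled values and bars for the deposited confidence intervals. The bars of the groups overlap for each gene, and Bcl2l1 has the highest value in both groups, 150 FPKM in PID- and 129 FPKM in PID+ cells.

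Among the pro-survival members, Bcl2l1 was the most abundant. Bcl2l1 (ENSMUSG00000007659.15), which encodes Bcl-xL, lies on the minus strand of chromosome 2 at 152780668 to 152831728 in GRCm38. Its level was 129 FPKM in PID+ cells, with an interval of 49.2 to 209, and 150 FPKM in PID- cells, with an interval of 56 to 244. The log2 change was -0.22. Mcl1 (ENSMUSG00000038612.13), a short-lived protein that restrains Bak1, lies on the plus strand of chromosome 3 at 95658788 to 95663176. It had 61.2 FPKM in PID+ (27.5 to 94.8) and 51.9 FPKM in PID- cells (22.8 to 81), a log2 change of 0.23. The sign of the Mcl1 change was negative when Gapdh was set equal and when the median of its chromosome, 0.25, was subtracted. Bcl2 (ENSMUSG00000057329.7), the founding member, lies on the minus strand of chromosome 1 at 106538178 to 106714274. It was low, with 6.77 FPKM in PID+ (2.15 to 11.4) and 8.26 FPKM in PID- cells (3.04 to 13.5), a log2 change of -0.25. Within a group, FPKM can be compared between genes because it is per length, and Bcl2l1 was 19.1 times the level of Bcl2 in PID+ and 18.2 times in PID- cells, with intervals apart in both groups.

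The effectors lay on opposite sides of 0. Bax (ENSMUSG00000003873.10), which moves from the cytosol to mitochondria when activated, lies on the minus strand of chromosome 7 at 45461697 to 45466898. It had 108 FPKM in PID+ (42 to 174) and 81.7 FPKM in PID- cells (30.2 to 133), a log2 change of 0.39. Bak1 (ENSMUSG00000057789.10), which resides in the mitochondrial membrane, lies on the minus strand of chromosome 17 at 27019810 to 27029009. It had 39.6 FPKM in PID+ (0 to 80) and 47 FPKM in PID- cells (1.74 to 92.3), a log2 change of -0.24. With equal Gapdh, Bax was lower in PID+ cells too. The library kit does not mark strand, so reads from overlapping genes may enter these values: Bax overlaps Gm45808 and Bak1 overlaps Ggnbp1.

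The BH3-only members spanned the whole range of changes seen in the family. Bcl2l11 (ENSMUSG00000027381.13), which encodes Bim, lies on the plus strand of chromosome 2 at 128126038 to 128162547 and had the highest change, a log2 of 0.53. Its level was 9.52 FPKM in PID+ (0 to 19.2) and 6.29 FPKM in PID- cells (0 to 12.7). Bad (ENSMUSG00000024959.10), the member that Pak1 phosphorylates, lies on the plus strand of chromosome 19 at 6941861 to 6951899 and had the lowest, a log2 of -0.54. Its level was 15.8 FPKM in PID+ (0 to 34.3) and 23.5 FPKM in PID- cells (0.255 to 46.8). Bad was at least 2-fold lower, with a log2 of -1.14, when Gapdh was set equal, as were 11.7% of all genes. Pmaip1 (ENSMUSG00000024521.7), which encodes Noxa, a partner of Mcl1, lies on the plus strand of chromosome 18 at 66458533 to 66465565. It was the most abundant of the BH3-only genes, with 55.2 FPKM in PID+ (24.2 to 86.1) and 39.2 FPKM in PID- cells (16.3 to 62.1), a log2 change of 0.48. With chromosome medians subtracted, Pmaip1 had the highest change of the members, 0.51, and Bcl2l11 had 0.45. Bbc3 (ENSMUSG00000002083.9), which encodes the p53 target Puma, lies on the plus strand of chromosome 7 at 16308393 to 16318205. It had 6.93 FPKM in PID+ (0 to 14.8) and 6.1 FPKM in PID- cells (0 to 13.2), a log2 change of 0.16. Bid (ENSMUSG00000004446.9), which links death receptors to mitochondria once caspases cleave it, lies on the minus strand of chromosome 6 at 120891930 to 120916853. It had 19.4 FPKM in PID+ (0 to 44.2) and 19.6 FPKM in PID- cells (0 to 42.2), a log2 change of -0.01. Bid overlaps Bcl2l13 and Bad overlaps Gpr137.

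Over the family, 5 members were higher and 5 lower in PID+ cells. Their median log2 change was 0.07, beside -0.0012 for these 9341 genes and 0 for all genes used. It was -0.02 with equal total FPKM, -0.14 with chromosome medians subtracted and -0.49 with equal Gapdh. The median size of the change without its sign was 0.25 in the family and 0.33 in the 9341 genes. The direction depended on the scaling. With equal Gapdh, 0 members were higher and 10 lower. Gapdh, a glycolytic enzyme often used as a reference, had 2570 FPKM in PID+ and 1666 FPKM in PID- cells, and setting it equal moved the median of the 9341 genes to -0.59. Relative to that shifted median, 5 members were above and 5 below. The all-gene split moved with it, from 726 genes higher and 828 lower at 2-fold to 285 higher and 2570 lower. With the median of each gene's chromosome subtracted, 3 members were higher and 7 lower, and Mcl1 and Bbc3 changed sign.

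The order of the members was similar in both groups. Bcl2l1 led, followed by Bax and then Mcl1 in each. Pmaip1 and then Bak1 came next in PID+ cells, and they were in the opposite order in PID- cells. Bid and then Bad followed in PID+ cells, with their places exchanged in PID- cells. Bcl2, Bcl2l11 and Bbc3 were the lowest in both. No neighbours in these orders had intervals apart. Of the 45 pairs of members, 15 had intervals apart in PID+ and 14 in PID- cells. In both groups Bcl2l1, Bax, Mcl1 and Pmaip1 each stood above Bcl2, Bcl2l11 and Bbc3 in this way.

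Shares and ratios within a group do not depend on a scaling between groups by a single factor. The summed FPKM of the 10 members was 451 in PID+ and 434 in PID- cells. Bcl2l1 made up 28.6% of this sum in PID+ and 34.6% in PID- cells, and Bax made up 23.9% and 18.9%. The pro-survival members together held 43.6% of the sum in PID+ and 48.5% in PID- cells. The effectors held 32.7% and 29.7%, and the BH3-only genes held 23.7% and 21.8%. The FPKM of Bax was 0.836 ± 0.363 of that of Bcl2l1 in PID+ cells and 0.545 ± 0.242 in PID- cells. The errors of ratios are SDs computed from the deposited bounds, with the genes taken as independent, and they do not hold the spread between mice. The log2 of this ratio differed by 0.62 ± 0.90 between the groups, which is less than 1 SD. Effectors and BH3-only genes together had 1.29 ± 0.364 times the FPKM of the pro-survival genes in PID+ and 1.06 ± 0.313 times in PID- cells, a log2 difference of 0.28 ± 0.59. Pmaip1 had 0.902 ± 0.354 of the FPKM of its partner Mcl1 in PID+ and 0.755 ± 0.305 in PID- cells. None of these 3 ratios differed between the groups by as much as 1 SD.

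Counting error was a small part of these errors. The value of a read could be estimated because low FPKM, multiplied by the transcript length less 180 bases, lay close to whole multiples of a single step. In genes with 1 transcript, 91% of low values in each group were within 0.1 of a whole number. The step and the length correction, 1 of 31 tried, were chosen on these same values, so this share describes the fit and does not test it. By the step and the longest coding transcript, each member had between 766 and 33486 fragments in a group, approximately. The lowest of these was Bbc3 in PID+ cells, and its counting error would be 3.61%. The FPKM that a single fragment added was 1.38 times higher in PID+ cells, which means fewer fragments behind a given FPKM there. The gene-level values add up all isoforms, which matters for Bcl2l1, whose long form protects cells and whose short form kills them.

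The BH3 region is the stretch by which members of the family bind each other. It is printed here because genes of opposite roles carry it, and it played no part in choosing them. Coding sequences of Gencode M21 transcripts (GRCm38) were searched in frame for a codon of leucine, 3 codons of any kind, a codon of glycine, alanine or serine, a codon of aspartate and then a codon of aspartate, glutamate or glycine. Of 21584 genes with a complete coding sequence, 1878 (8.7%) held this pattern, and a match is a description of the letters only. The pattern occurred exactly 1 time in the coding sequence chosen for 9 of the 10 members, inside a single exon each time. The exception was Pmaip1, in which these letters were not found, and no sequence of it is shown. The pattern fixes the codon after aspartate too, so a missing match does not show that a gene lacks a BH3 region.

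The 51 bases around each match follow, 5′ to 3′ on the coding strand, with the 6 codons from leucine to aspartate in capitals. The fifth of these codons was GGG in Bcl2, GGC in Bcl2l1, Mcl1 and Bid, and GGA in Bax, Bak1 and Bcl2l11. It was GCG in Bbc3 and AGC in Bad. The stretches lie at chr1:106712566-106712616 (minus strand) for Bcl2, chr2:152829688-152829738 (minus) for Bcl2l1 and chr3:95659421-95659471 (plus) for Mcl1. They lie at chr7:45465988-45466038 (minus) for Bax and chr17:27022522-27022572 (minus) for Bak1. Those of the BH3-only genes lie at chr2:128147135-128147185 (plus) for Bcl2l11, chr7:16313758-16313808 (plus) for Bbc3, chr6:120897280-120897330 (minus) for Bid and chr19:6950777-6950827 (plus) for Bad.
Bcl2: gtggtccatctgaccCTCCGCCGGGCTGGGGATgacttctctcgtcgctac
Bcl2l1: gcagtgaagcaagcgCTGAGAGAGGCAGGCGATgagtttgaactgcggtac
Mcl1: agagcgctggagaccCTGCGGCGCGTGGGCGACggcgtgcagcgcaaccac
Bax: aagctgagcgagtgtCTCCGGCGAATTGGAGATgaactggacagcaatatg
Bak1: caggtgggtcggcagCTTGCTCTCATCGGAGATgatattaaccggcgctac
Bcl2l11: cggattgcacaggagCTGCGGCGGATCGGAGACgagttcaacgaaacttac
Bbc3: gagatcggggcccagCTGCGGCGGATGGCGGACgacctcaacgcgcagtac
Bid: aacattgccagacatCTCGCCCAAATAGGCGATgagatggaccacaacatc
Bad: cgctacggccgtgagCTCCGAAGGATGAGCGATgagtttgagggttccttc

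Some annotated isoforms lack the pattern, and the gene-level FPKM does not tell them from the others. Among isoforms with a complete coding sequence, it was missing from 1 of 7 of Bcl2l1, 1 of 3 of Bax and 1 of 5 of Bcl2l11, and from all 3 of Pmaip1. All 6 such isoforms of Bad held it.

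Of the other genes of the pathway, 77 in 10 lists, 1 was past 2-fold with the higher value in PID+ cells and 2 with the lower, beside the 3.31% and 3.77% of all genes. Under alternatives added for these lists after the values were seen, the counts were 4 higher and 3 lower with a pseudocount of 0.1, beside 6.53% and 6.94% of all genes. Among the 62 that averaged 5 FPKM or more, 1 was higher and 1 lower, beside 5.01% and 5.2% of such genes. Over all 77, the counts with equal Gapdh were 1 higher and 15 lower, beside 1.3% and 11.7%. They were 1 higher and 4 lower with equal total FPKM, beside 2.84% and 4.49%, and also with chromosome medians subtracted, beside 3.32% and 3.58%. With equal upper quartiles of FPKM they were 2 higher (Sfn and Tnfrsf10b) and 2 lower, beside 3.4% and 3.75%. Without these alternatives, the median log2 change of the 77 was 0.01. Intervals were apart in 0 of the 77, beside 0.187% of all genes higher and 0.542% lower. The gene that was higher was Sfn, the epithelial 14-3-3 protein sigma, with 49 FPKM in PID+ (19.1 to 79) and 13.1 FPKM in PID- cells (1.83 to 24.4), a log2 of 1.83. Ddit3, which encodes the stress factor Chop, had 14.3 FPKM in PID+ (0 to 47.6) and 56.1 FPKM in PID- cells (0 to 158), a log2 of -1.90. Bmf, a BH3-only gene, had 0.913 FPKM in PID+ (0 to 2.22) and 2.94 FPKM in PID- cells (0 to 6.85), a log2 of -1.04. Each of the 3 kept its sign and stayed past 2-fold under the 5 scalings tried.

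**Figure D2:**
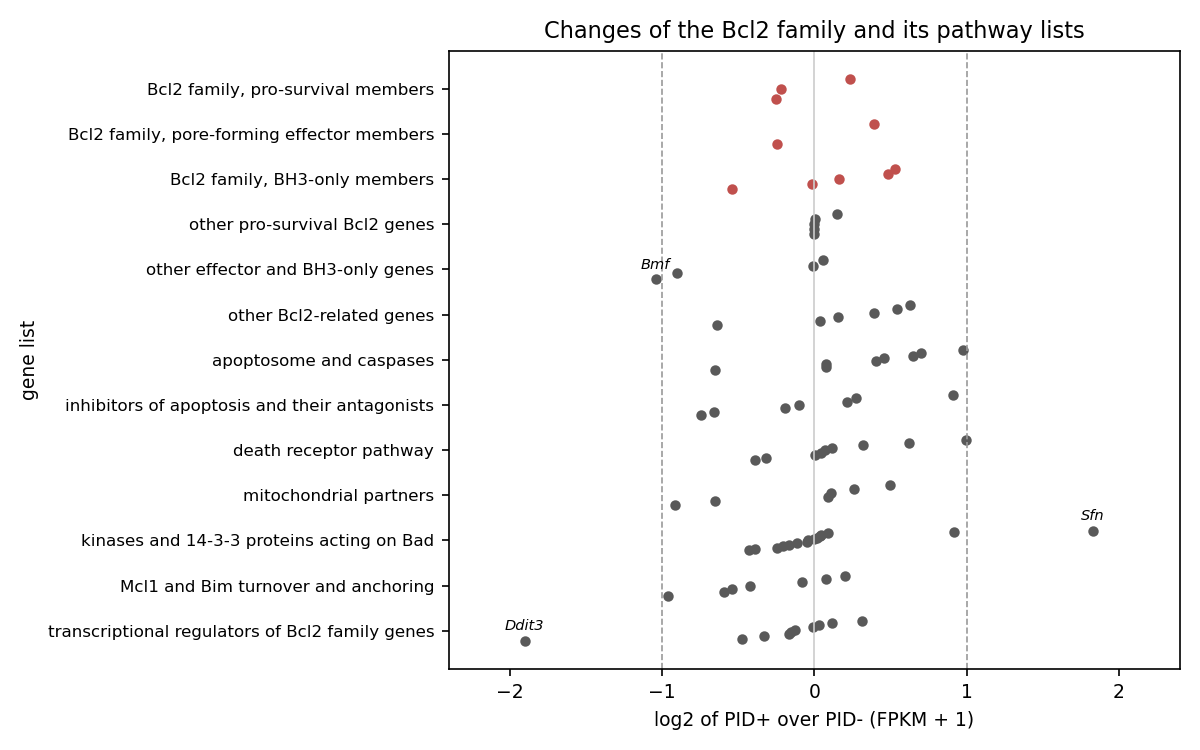
Log2 change of PID+ over PID- cells (x axis, FPKM + 1) of the 10 Bcl2 family members (red) and the other pathway genes (grey), with a point per gene and a row per list, and dashed lines at 2-fold. The members lie between -0.54 and 0.53, and Sfn, Ddit3 and Bmf are the genes past a dashed line; with equal Gapdh the members lie between -1.14 and -0.02.

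The other Bcl2 relatives varied in level and in change. Of the 5 other pro-survival genes, 3 (Bcl2a1a, Bcl2a1b and Bcl2a1d, near-identical copies named after their values were seen) were listed at 0 in both groups. Bcl2l2, which encodes Bcl-w, was the most abundant of them, with 19.5 FPKM in PID+ and 17.5 FPKM in PID- cells. In the list of 4 other effector and BH3-only genes, Bok led with 20.6 FPKM in PID+ and 19.8 FPKM in PID- cells. Of these 4 genes, 1 was higher and 3 lower in PID+ cells, with a median of -0.46. Bik, a BH3-only gene named after its values were seen, had 2.14 FPKM in PID+ and 4.88 FPKM in PID- cells, a log2 of -0.90. In the list of 6 other related genes, Bnip3l, a receptor for the removal of mitochondria, led with 87 FPKM in PID+ and 78 FPKM in PID- cells. Of these 6, 5 were higher and 1 lower in PID+ cells, with changes from -0.64 for Bcl2l15 to 0.63 for Bcl2l14, both named after their values were seen, and a median of 0.27. Bcl2l14 was low, with 0.593 FPKM in PID+ (0 to 1.47) and 0.0305 FPKM in PID- cells (0 to 0.122), and its log2 was 2.41 with a pseudocount of 0.1.

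Downstream of mitochondria, 0 of the 8 genes of the apoptosome and caspases were past 2-fold, beside 3.31% of all genes higher and 3.77% lower. Of these 8, 7 were higher in PID+ cells, and the median was 0.43. Casp8, the initiator caspase of death receptors, had the highest level, with 71.4 FPKM in PID+ and 53.6 FPKM in PID- cells. Among the 7 inhibitors of apoptosis and their antagonists, 3 were higher and 4 lower, with a median of -0.10. Birc5, which encodes survivin and also acts in mitosis, had 103 FPKM in PID+ and 54.1 FPKM in PID- cells. In the death receptor list 7 of 9 genes were higher, with a median of 0.07, and Cflar, an inhibitor of Casp8, had 72.3 FPKM in PID+ and 57.8 FPKM in PID- cells. With a pseudocount of 0.1, the median of this list was 0.32. Then 2 of its genes, Fas and Tnfrsf10b, passed 2-fold upwards, beside 6.53% of all genes. Tnfrsf10b had 41.6 FPKM in PID+ and 20.4 FPKM in PID- cells, a log2 of 0.994 with the added 1, just under 2-fold. Among the 6 mitochondrial partners the median was 0.10, and Tmbim6 led with 250 FPKM in PID+ and 208 FPKM in PID- cells.

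Upstream of the family, the 15 kinases and 14-3-3 genes that act on Bad had a median of -0.04, with 6 higher and 9 lower. Ywhae, a 14-3-3 gene, was the most abundant, with 450 FPKM in PID+ and 445 FPKM in PID- cells. Pak1, named after its values were seen since PID acts on its protein, had 17.6 FPKM in PID+ and 23.4 FPKM in PID- cells, a log2 of -0.39. Of the 7 genes of Mcl1 and Bim turnover and anchoring, 2 were higher and 5 lower, with a median of -0.42. Dynll1, a light chain that anchors Bim, had 367 FPKM in PID+ and 348 FPKM in PID- cells. Among 10 transcriptional regulators, 3 were higher and 7 lower, with a median of -0.14, and Atf4, which acts upstream of Ddit3, had 166 FPKM in PID+ and 231 FPKM in PID- cells. Of the 10 pathway lists, 4 had a median above 0 and 5 below 0, and with equal Gapdh 0 had a median above 0 and 9 below 0. With chromosome medians subtracted, 3 were above and 7 below, and the medians of the other Bcl2-related genes and of the mitochondrial partners turned to -0.03 and -0.05.

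Markers of cell type were compared in 6 lists. Of 8 colon epithelium markers, 5 passed 2-fold upwards and 1 downwards in PID+ cells, beside 3.31% and 3.77% of all genes. With equal Gapdh, 1 passed upwards (Epcam) and 1 downwards (Cdx2), beside 1.3% and 11.7%. The list summed to 8809 FPKM in PID+ and 4886 FPKM in PID- cells. Krt19 had the highest mean level, with 2469 FPKM in PID+ and 2073 FPKM in PID- cells. In PID+ cells Krt18 and Krt8 were above it, with 2843 and 2745 FPKM, beside 1199 and 1319 FPKM in PID- cells. Krt20, a keratin of the intestinal lining, had 158 FPKM in PID+ and 73.5 FPKM in PID- cells. Vil1, a protein of intestinal microvilli, was near 0 in both, with 0.175 and 0.0614 FPKM. Cdx2, an intestinal transcription factor, had 0.542 FPKM in PID+ and 8.04 FPKM in PID- cells. Of 8 fibroblast markers, 4 passed 2-fold downwards, beside 3.77% of all genes, and the list summed to 3 FPKM in PID+ and 34.1 FPKM in PID- cells. Col1a1 had the highest mean level, with 2.32 FPKM in PID+ and 11.9 FPKM in PID- cells, Lum was listed at 0 in both groups and Dcn at 0 in PID+ cells. The intervals of 1 fibroblast marker were apart, Col1a2, with 0.0654 FPKM in PID+ and 11.9 FPKM in PID- cells. Over all genes, intervals were apart in this direction in 0.542%. The 7 leukocyte markers summed to 21.9 FPKM in PID+ and 17.1 FPKM in PID- cells, nearly all of it Cd68, and Cd3e was listed at 0 in both. The 4 mast cell and basophil markers summed to 83.1 FPKM in PID+ and 10 FPKM in PID- cells, nearly all of it Mcpt8, with Cpa3 and Fcer1a listed at 0 in both. Mcpt8 had 82.5 FPKM in PID+ and 9.6 FPKM in PID- cells, with intervals apart, beside 0.187% of all genes in this direction. The 3 endothelium markers summed to 3.64 and 1.11 FPKM, led by Kdr, and the 3 smooth muscle markers to 4.56 and 9.83 FPKM, led by Acta2. The part of these cell states in the levels of the Bcl2 family was not tested, and fewer cells of a type and less RNA per cell cannot be told apart.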

How the data were processed

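The authors trimmed the poly A selected reads with CutAdapt, aligned them with TopHat and Bowtie2 to GRCm38.p3, merged the 3 read sets of each group and deposited the gene-level FPKM of CuffDiff, normalized to compatible hits, with interval bounds. The methods call these sets replicated sequencing runs and the labels name 3 mice. The table's treated and untreated values were taken as PID+ and PID-, after the labels. Symbols matched 21734 of 21966 identifiers, and 7 genes with a status other than OK were left out. The deposited standard deviation was not used.

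Changes are log2 of FPKM + 1 in PID+ over PID-. Bounds were taken as 2 SD from the FPKM. Since values are pooled, no test was run. Steps of FPKM give the value of a fragment, with at least 5% of low values required at 1 and at 3 fragments, since otherwise a fraction of the step can be taken for it. Functions were tested on simulated data. The members and lists were chosen with earlier results of these data known. Named genes are the 10 members, the genes of each pathway list past 2-fold with at least 1 FPKM in the higher group, the most abundant gene of each pathway list, and Gapdh; others are given as marker values or were chosen after their values were seen. Alternatives were a pseudocount of 0.1, 5 other scalings, only genes averaging 5 FPKM or more, intervals at 0.5 of their width and a wider sum for shares. Positions and coding sequences came from Gencode M21. Python 3.11.15, numpy 2.4.6, pandas 2.3.3 and matplotlib 3.10.9 were used.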

Additional observations from a re-analysis of the deposited data

How the results depend on the processing

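Of the 10 members, 0 had intervals apart at 0.5 of the deposited width too. With equal Gapdh, the median of the members was -0.49, 1 member was at least 2-fold changed and 5 at least 1.5-fold, beside 54.4% of genes averaging 5 FPKM or more, and the genes past 2-fold were 285 higher and 2570 lower, and past 3-fold 91 higher and 723 lower. This follows from the construction, since Gapdh itself was higher in PID+ cells. With a pseudocount of 0.1, 1 member passed 1.5-fold, beside 28.8% of such genes, and 1434 genes were higher and 1523 lower at 2-fold, and 621 and 795 at 3-fold; with equal total FPKM, 1 member passed 1.5-fold, beside 27.6%. In genes averaging 5 FPKM or more, the counts were 468 and 486 at 2-fold and 144 and 221 at 3-fold, as fewer genes were counted. The counts of members past 2-fold and 3-fold were 0 under the other alternatives. Shares fall by construction when the sum holds more genes, with Bcl2l1 at 19.2% in PID+ and 23.1% in PID- cells. Leaving out a sample was not possible with pooled values. No paired analysis was run, since the values are pooled and the labels pair no PID+ sample with a PID- sample. The deposited bounds are wider than counting error, and the spread between mice was not measured.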
